A study of Mus musculus with 32 samples.

Results

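The autosomal intergenic noncoding RNA probes of this array were described here in mouse liver cells and C26 colon carcinoma cells. They comprised 15604 of the 55681 distinct probes that were not controls (28.0%) and were chosen by name alone, as every probe named by a span of chromosome 1 to 19 with a strand, F (forward) or R (reverse). Each was a 60-base probe, and together they covered 3387 regions on mouse assembly mm9, of which 1042 were probed on both strands and 2345 on 1 strand, so that 4429 region strands were represented. All 15604 carried the array's description as large intergenic noncoding RNA, and a further 577 probes of the same name form on chromosome X were not members. A region strand held 1 to 10 probes (median 3), the median region was 7451 bases long (quartiles 794.5 and 21818), and 7890 probes lay on the forward and 7714 on the reverse strand.

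The study compared liver cells from healthy mice with those of a liver colonised by colorectal cancer (CRC). All mice were Balb/c males aged 6 to 8 weeks, inoculated in the spleen with C26 colon carcinoma cells (the tumor microenvironment, TME, groups) or with PBS alone (the control groups), and their livers were taken about 2 weeks later. Endothelial, Ito (stellate) and Kupffer cells were separated by collagenase perfusion, Percoll gradients and adherence, which gave the groups EC and ET (endothelial control and TME), IC and IT (Ito) and KC and KT (Kupffer), and 2 further groups held tumor liver metastasis cells (TM) and CRC primary cells (TP). Each group had 4 samples, described in the study's methods as biological replicates, and the 32 samples were the single channels of 16 two-colour arrays on 2 slides. The tumor groups came from 1 inoculated cell line, C26, which is syngeneic with Balb/c, and how TM and TP cells were separated from host cells is not given in the sources used here. Control and TM samples were all labelled with Cy3 and TME and TP samples with Cy5, so dye and group cannot be told apart in TME against control and in TP against TM. Endothelial and Ito samples lay on 1 slide and Kupffer and tumor samples on the other, hence IC against EC, IT against ET, TM against KC and TP against KT were comparisons within 1 dye and 1 slide.

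Long intergenic noncoding RNAs (lincRNAs) are transcripts made by RNA polymerase II outside protein-coding genes, often spliced and polyadenylated, without a long conserved reading frame. As a class they are known for low abundance and for expression limited to few cell types, and some act in the nucleus on chromatin or on nearby genes while most have no assigned function. Malat1 and Neat1 are the best known of the abundant ones in liver and in tumors. Regions of this kind can be drawn from chromatin marks of active transcription, which do not tell the strand, so probes are often placed on both. The regions here were checked against the other probes of the array: 525 of the 4429 region strands (11.9%) held a probe of a gene with a RefSeq symbol (GRCm38.p6 names) on the same strand, 224 (5.06%) of a protein-coding gene, and 2798 of the 3387 regions held none on either strand. The nearest probe of a named gene lay at a median of 19315.5 bases from a member with a mapped position (15486 of 15604). Region strands were not all separate, as 2034 (45.9%) overlapped another on the same strand, so neighbouring members may overlap.

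The probes on which the main results turn are printed first, 5′ to 3′ as they stand on the array, because they are what was hybridised and can be placed on any assembly. The first set separated tumor from liver cells: A_30_P01032159 and A_30_P01027901 from chr12:50490638-50508093 on the forward strand, A_30_P01029641 from chr5:31883451-31884082 and A_30_P01030209 from the enclosing chr5:31856417-31916414, both forward, A_30_P01024838 from chr7:111530578-111539097 and A_30_P01024163 from chr1:175705225-175717250, both reverse. The chr5 probes share 49 bases, so they are close to 1 measurement. No base is capitalised in this set, since none was singled out.
A_30_P01032159: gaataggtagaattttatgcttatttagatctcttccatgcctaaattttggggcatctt
A_30_P01027901: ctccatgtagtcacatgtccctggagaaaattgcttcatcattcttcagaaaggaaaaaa
A_30_P01029641: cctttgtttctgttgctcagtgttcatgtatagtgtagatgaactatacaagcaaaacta
A_30_P01030209: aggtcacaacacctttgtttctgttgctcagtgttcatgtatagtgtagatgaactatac
A_30_P01024838: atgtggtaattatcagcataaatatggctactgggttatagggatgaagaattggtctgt
A_30_P01024163: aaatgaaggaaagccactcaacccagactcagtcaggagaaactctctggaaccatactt

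The second set holds 2 pairs of probes that read opposite strands of the same bases, of which the first was measured on both strands and the second in 32 samples on 1 strand and in 2 on the other; capitals mark the bases shared with the partner's reverse complement, 57 in the first pair and 47 in the second. The first pair lay at chr11:22686754-22686813 (forward) and chr11:22686751-22686810 (reverse), the second at chr11:35810479-35810538 (forward) and chr11:35810466-35810525 (reverse).
A_30_P01025488: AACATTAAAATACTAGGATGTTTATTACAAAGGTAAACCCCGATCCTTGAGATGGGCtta
A_30_P01026458: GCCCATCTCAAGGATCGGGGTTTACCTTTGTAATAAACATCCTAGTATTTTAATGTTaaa
A_30_P01024472: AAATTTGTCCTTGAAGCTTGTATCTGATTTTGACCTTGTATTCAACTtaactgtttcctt
A_30_P01017641: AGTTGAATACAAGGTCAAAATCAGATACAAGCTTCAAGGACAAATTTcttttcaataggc

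The third set separated Ito from endothelial cells or TME from control endothelial cells, and shares the run GAGAGAGA, in capitals. The probes came from chr4:33375464-33377138 (reverse), chr17:88225376-88238756 (forward), chr4:98943050-98959998 (reverse) and chr2:32950586-32984936 (forward), in the order printed.
A_30_P01028216: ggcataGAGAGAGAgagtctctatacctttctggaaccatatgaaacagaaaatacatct
A_30_P01030381: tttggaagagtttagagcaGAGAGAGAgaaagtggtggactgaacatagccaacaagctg
A_30_P01025695: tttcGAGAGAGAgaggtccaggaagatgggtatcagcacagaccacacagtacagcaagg
A_30_P01028540: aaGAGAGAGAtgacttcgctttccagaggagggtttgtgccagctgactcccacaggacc

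The last set bears on TME against control cells, the first 2 called with all arrays and the last 2 only without array 4 (below), namely chr13:54399275-54445825 (reverse), chr8:70719179-70719686 (forward), chr10:39666719-39679959 (reverse) and chr10:94870971-94871658 (reverse), again in the order printed and with no base singled out.
A_30_P01023147: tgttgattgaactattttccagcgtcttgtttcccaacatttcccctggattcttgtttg
A_30_P01027592: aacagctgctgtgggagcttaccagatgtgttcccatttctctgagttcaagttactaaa
A_30_P01033673: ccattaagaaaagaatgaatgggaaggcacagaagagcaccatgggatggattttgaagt
A_30_P01024852: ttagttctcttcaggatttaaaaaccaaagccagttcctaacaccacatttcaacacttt

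Levels are given as log2 of the deposited, quantile-normalised intensity, and a probe is called measured in a sample when the scanner software marked its spot well above background (WAB) in that sample's dye. Probes differ in their response, so a member's level is set only against its own level in other samples. Some samples stood apart before any result was drawn. Over the 1865 members measured in all 32 samples, the TME minus control difference of array 4 correlated at -0.45 with the mean of the other 3 arrays in Ito cells and at -0.46 in Kupffer cells, whereas arrays 1 to 3 gave 0.25 to 0.32 and 0.28 to 0.30 in turn. Array 4 of the Ito and of the Kupffer set thus ran against the other arrays of its comparison, and the counts of members called and the named members of the comparisons that use these cells are given with and without replicate 4 (the sample of array 4 in every group). On the same array the Kupffer marker list (10 genes, log2 of their summed intensity) was 19.13 in the KC sample against 16.55 to 17.61 in the other 3, and 17.67 in the KT sample against 18.66 to 18.68. In Ito cells that list was 18.79 in the IC sample of array 4 against 16.51 to 16.79, and 16.67 in the IT sample against 14.86 to 18.53. The neutrophil list (7 genes) was 13.87 in IC and 13.74 in KC on array 4, against 10.35 to 10.51 and 11.59 to 12.01 on the other arrays, and 10.71 in IT and 11.71 in KT, against 13.06 to 14.29 and 13.44 to 13.54. In TP minus TM, array 1 gave -0.14 and array 4 gave 0.01, against 0.62 on arrays 2 and 3, and endothelial arrays gave 0.31 to 0.65. TME Ito replicate 2 stood apart with an epithelial list of 17.23 against 12.19 to 12.35 in the other IT samples, and TME endothelial replicate 2 with 13.56 against 11.12 to 11.20 and an erythroid list of 14.52 against 8.31 to 9.93. Without replicate 2 of every group 56 members were called in ET against EC, 27 in IT against IC and 470 in IT against ET, in place of 80, 52 and 642. These are counts of members alone, without the share over all probes.

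The labelled cell types were set against marker lists. None of 11 Ito markers was higher in IC than in EC and 2 were lower, while 7 of 8 hepatocyte markers, 4 of 10 Kupffer and 3 of 5 erythroid markers were higher. In IT against ET all 8 hepatocyte markers and 3 of 5 erythroid markers were higher and no Ito marker differed in either direction. The summed hepatocyte list was 17.12 to 18.74 in IC and 15.04 to 15.29 in EC, and 17.29 to 18.49 in IT and 13.85 to 15.22 in ET. No stellate marker, desmin (Des) and Lrat included, was thus higher in the samples labelled Ito than in the endothelial samples. In TM and TP all 10 endothelial and all 10 Kupffer markers were lower than in KC and KT. Of 7 epithelial and colon tumor markers 1 was higher and 1 lower in TM than in KC. In TP 1 was higher and 2 were lower than in KT. The sum of that list was 10.23 to 11.53 in TM and 9.81 to 12.10 in TP, against 12.67 to 12.74 in EC. The summed endothelial list was 16.35 to 17.03 in KC and 17.51 to 17.60 in KT, against 16.75 to 16.80 in EC and 16.32 to 16.74 in ET. As these are bulk samples, fewer cells of a type and less RNA per cell cannot be told apart.

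Members were detected less often than the other probes of the array. Of the 15604 members, 1865 (11.95%) were measured in all 32 samples, 7536 (48.3%) in 1 to 31 samples and 6203 (39.8%) in none. Among the other probes 38.0% were measured in all 32 and 23.7% in none. Counting probes measured on all 4 arrays of at least 1 group gave 4966 members (31.8%) against 60.01% of the other probes, and these members covered 2492 region strands (56.3%) and 2017 regions (59.6%). With the scanner's positive-and-significant flag in place of the well above background flag the count of members was 9110. Measured members were thus a minority by the stricter flag, and for the 6203 members in no sample these arrays give no level. On its own strand 3.92% of members held the polyadenylation hexamer AATAAA, against 12.5% of the other probes, and its reverse complement TTTATT stood in 3.08% and 4.00%.

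The number of members measured per sample varied with the cell type and within groups. The mean was 5263 ± 1003 (SD, n = 4) in EC, 4932 ± 837 in ET, 4887 ± 755 in KC and 4669 ± 214 in KT. Ito cells went from 5119 ± 221 in IC to 3851 ± 428 in IT, and tumor cells from 4498 ± 578 in TM to 3424 ± 357 in TP. The highest IT sample (4209) lay under the lowest IC sample (4963), and the highest TP sample (3664) under the lowest TM sample (3765), whereas the endothelial and Kupffer groups overlapped. With replicate 4 left out the means were 5135 ± 268 in IC, 3793 ± 505 in IT, 4857 ± 922 in KC and 4572 ± 115 in KT (n = 3), and IC and IT still did not overlap. As shares of all members these means were 33.7, 31.6, 32.8, 24.7, 31.3, 29.9, 28.8 and 21.9% in EC, ET, IC, IT, KC, KT, TM and TP. The other probes had 59.3, 58.0, 57.9, 53.0, 56.7, 56.6, 52.6 and 48.7% in the same order, so TP was lowest for members and for other probes alike. The gap between IC and IT, and between TM and TP, was also a gap between Cy3 and Cy5.

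**Figure D1:**
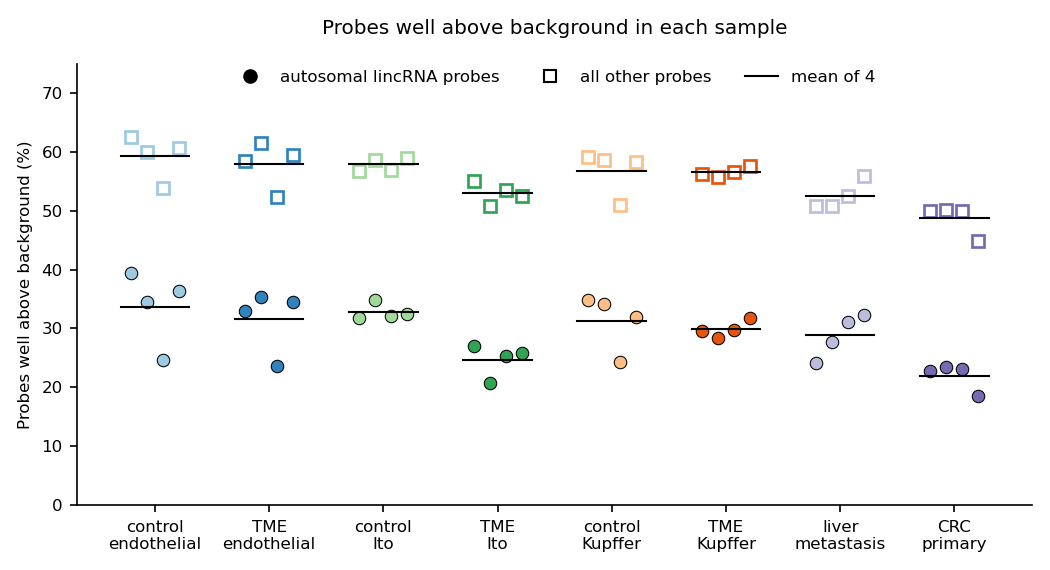
Share of probes well above background in each of the 32 samples (vertical axis, percent), by group, for members (filled circles) and for all other probes (open squares); black lines are means of 4 samples. In every sample the members lie below the other probes, and group means of members run from 21.9% in TP to 33.7% in EC.

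Few members were measured in 1 kind of cell alone. Across the 8 tumor samples and 24 liver cell samples, 29 members (0.186%) from 24 region strands were measured in all 8 tumor samples and in none of the liver samples, and 26 members (0.167%), also from 24 region strands, in all 24 liver samples and in no tumor sample. The corresponding shares of other probes were 0.314% and 1.66%. Among liver cells, 4 members were measured in all 8 endothelial samples and no Ito or Kupffer sample, 2 in all 8 Kupffer samples only, and 0 in Ito samples only. The Ito count was 0 for the other probes as well. Where a group was below background the fold is given as a bound, computed from per-channel loess- and Aquantile-normalised means against the lowest measured signal, which is open to dye bias without dye swaps; for the 29 tumor members the bounds of TM over KC ran from at least 1.49-fold to at least 81.1-fold (median 3.77). These sets were chosen by the measurements themselves, so the values are a description.

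The members measured only in tumor cells often came in neighbouring probes, and 17 of the 29 lay within 10 kb of a probe of a named gene. At chr14:105988692-105994145 on the forward strand A_30_P01026930 was at 7.91 to 8.99 in tumor samples and 1.86 to 4.62 in liver samples, at least 7.98-fold higher in TM than in KC and 6.39-fold in TP than in KT, and A_30_P01028495 at 6.73 to 8.24 and 2.14 to 2.45. The noncoding gene 9330188P03Rik, 593 bases from the former on the same strand, was likewise measured in 8 of 8 tumor samples and 0 of 24 liver samples (at least 39.9-fold, TM over KC), and A_30_P01029141 on the opposite strand was too. The TM and TP samples of these probes lay above every liver sample. Probe A_30_P01032788 at chr8:94841965-94881130 (reverse) stood at 7.33 to 9.02 in tumor and 2.08 to 3.12 in liver samples, 9255 bases from 4933436C20Rik, which had the same pattern. Of the 29, only 8 had a nearest gene with that pattern. At chr8:89996710-90049453 (forward) A_30_P01024770 was at 7.62 to 10.77 in tumor cells and 2.16 to 3.46 in liver cells (at least 8.38-fold and 6.87-fold), and A_30_P01022123 at 7.29 to 10.37 and 2.28 to 3.91, while Gm2694, 52588 bases from the former, differed by -0.13 and -0.19. Likewise A_30_P01020056 and A_30_P01021179, 3723 and 3730 bases from Cdkn1b (the cyclin-dependent kinase inhibitor p27) on the same strand, ranged over 6.21 to 9.20 and 6.52 to 9.52 in tumor samples and reached at most 3.33 and 3.90 in liver samples, with Cdkn1b measured in all 32 and differing by 0.31 and 0.25. A gene within 10 kb, such as Cdkn1b, thus did not always share the pattern of these members. The 2 probes A_30_P01022270 and A_30_P01024183 of chr3:90425270-90435820 (forward) lay 9922 and 9791 bases from S100a6, a calcium-binding protein gene that was measured in all samples and higher by 5.41 and 5.47 in tumor cells.

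Among the 26 members measured only in liver cells, 5 lay within 10 kb of a named gene and 1 nearest gene (Trim30c) had the same pattern. The Trim30c probe lay 0 bases from that member on the same strand. The 3 members nearest to Herc6, an interferon-induced ubiquitin ligase of the ISG15 system, were A_30_P01021483 at chr6:57560819-57569928 on its strand (7.36 to 9.27 in liver, 2.28 to 4.71 in tumor samples) and A_30_P01018494 and A_30_P01032772 on the opposite strand (6.98 to 8.25 and 6.04 to 7.58 in liver samples). Herc6 itself was measured in all 32 samples and its probe nearest to A_30_P01021483 differed by -4.99 (TM minus KC) and -5.32 (TP minus KT). A_30_P01021483 was lower by at least 5.46-fold and 5.38-fold and A_30_P01018494 by at least 3.08-fold and 3.25-fold. At chr11:119250824-119286324 (reverse) A_30_P01021573 ranged over 6.69 to 8.46 in liver and 2.32 to 3.99 in tumor samples, at least 3.61-fold and 2.78-fold lower, and lay opposite and 21267 bases from Rnf213, a large ubiquitin ligase, which differed by -3.78 and -3.68. A_30_P01019413 at chr12:56564855-56565310, 26269 bases from Nfkbia (the inhibitor of NF-kappaB), was at 5.66 to 9.01 and 2.22 to 3.73, at least 1.67-fold and 1.62-fold lower. These neighbours were picked after their values were seen, and most of the 26 had a nearest gene measured in both kinds of cell.

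Detection often differed between probes on the strands of a region. Of the 1042 regions probed on both strands, 558 had at least 1 strand with a probe measured in all 32 samples, and in 201 of these it was the forward strand alone, in 205 the reverse strand alone and in 152 both. The clearest view came from probes over the same bases: 1694 pairs on opposite strands shared at least 30 bases, and of the 361 with a strand measured in all 32 samples 40 were measured throughout on both and 79 in 0 samples on the other. Of the pair printed above, the forward probe A_30_P01024472 was measured in 32 samples and the reverse probe A_30_P01017641 in 2, 11071 bases from Tenm2. In the first pair both were measured in 32 samples. Levels of different probes are not comparable, so the strands were set against each other by detection alone. At chr4:136856064-136877219 all 5 reverse probes, which lie over Cdc42, were measured in all 32 samples, and the 5 forward probes in 0 to 32. On chromosome 18, 2 of 2 forward probes of the region starting at 23922600 were measured in all 32 samples and 0 of 3 reverse probes.

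Where a region strand had several measured probes they mostly moved together. For the 166 region strands with at least 3 probes measured in all 32 samples (619 probes), the median Pearson correlation between their probes over samples was 0.904 (quartiles 0.603 and 0.964). After the group means were removed it was 0.835 (0.519 and 0.938), above 0 in 160 of 166. These points share the sample's RNA and its array, so they describe agreement between probes and not replication. A further 74 members had exactly the sequence of another probe of the array outside the set, and for the 23 measured throughout the paired values differed by a median of 0.123 and at most 0.584.

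**Figure D2:**
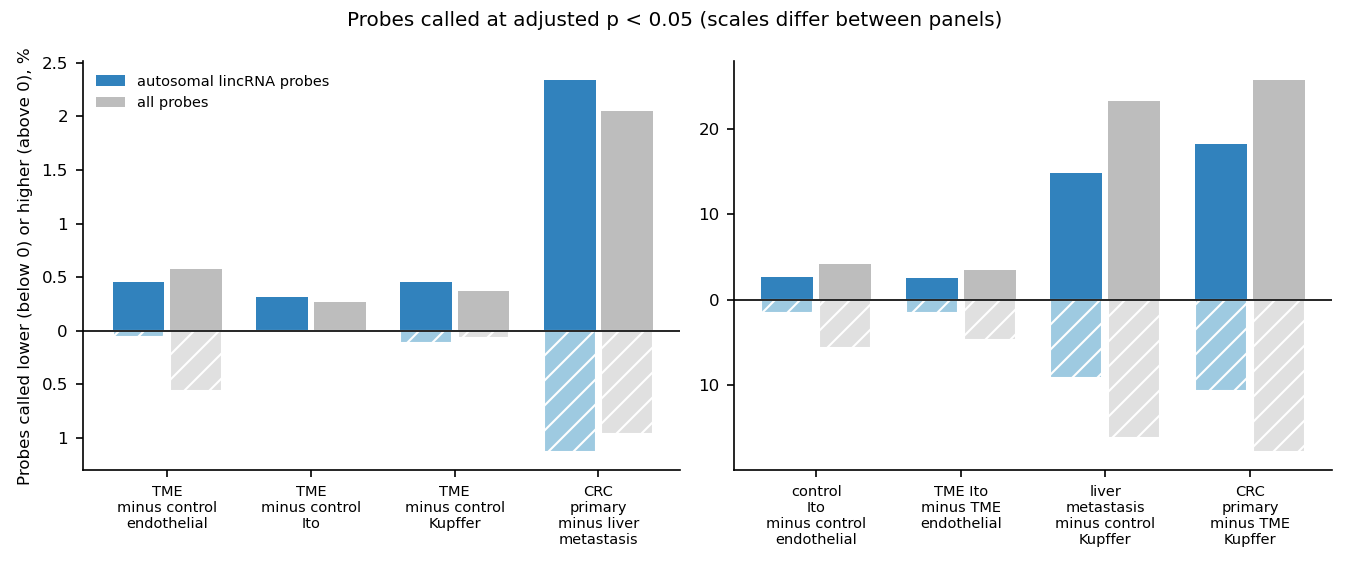
Members (blue) and all 55681 probes (grey) called higher (above 0) or lower (hatched, below 0) at adjusted p under 0.05, as percent of each set, in the 8 comparisons. The scale differs between panels, and tumor against Kupffer cells had the largest shares (members 24% and 28.9%).

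The comparison of tumor with Kupffer cells asked which intergenic transcripts tell the carcinoma from a resident liver cell, in the same dye and on the same slide. In TM against KC 2316 members were higher (23.3% of all probes were called higher) and 1436 lower (16.2%), and in TP against KT 2844 were higher (25.7%) and 1669 lower (17.8%), by limma with Benjamini-Hochberg adjustment over all probes at adjusted p under 0.05. Members were called less often than all probes, at 24% against 39.4% and 28.9% against 43.6%, and 1661 were higher (10.6%) and 1110 lower (7.11%) in both, against 19.3% and 14.01% of all probes. Without replicate 4 the counts were 2207 higher (22.5% of all probes) and 1355 lower (15.3%) in TM against KC, and 2260 (22.7%) and 1508 (16.6%) in TP against KT. Of the named members called with all arrays, 28 of 28 and 32 of 34 remained called, all with the same sign, and A_30_P01023147 and A_30_P01029022 were lost in TP against KT. Many calls came from dim spots: 515 of the 2316 and 1122 of the 2844 higher members had no array above background in either group. On all 8 arrays of both groups 636 and 879 of the higher and 485 and 384 of the lower members were measured. Median differences of all members were 0.07 and 0.10, against 0.08 and 0.10 over all probes.

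Calls were often borne by several probes of a region. Of the 3258 region strands with at least 3 probes, 1665 had a call in TM against KC, of which 839 rested on 1 probe, 448 had 2 or more probes higher, 250 had 2 or more lower and 128 had calls both ways. For TP against KT these numbers were 2052, 1012, 532, 263 and 245. Every probe was higher in both comparisons for 97 region strands and lower in both for 77. The levels of each probe of 4 such or similar regions are plotted by sample.

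**Figure D3:**
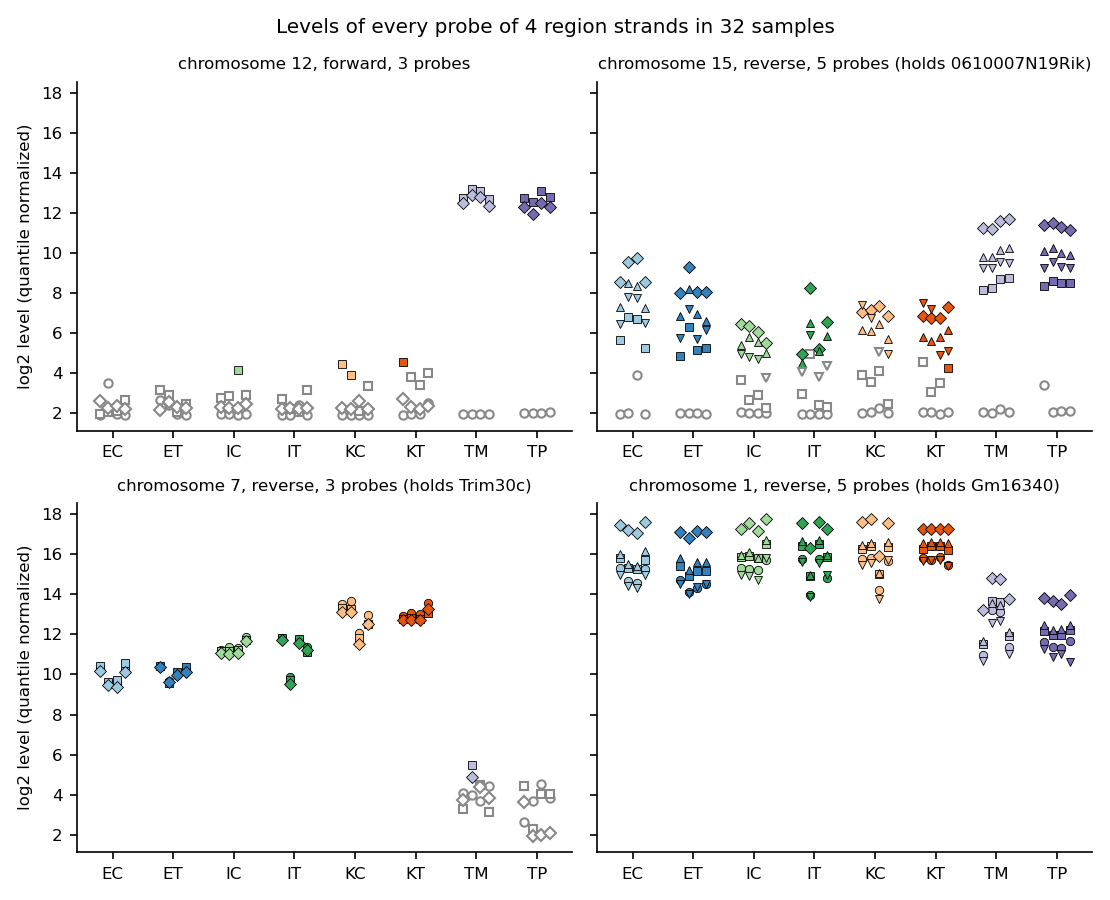
log2 levels (vertical axis) of every probe of 4 region strands in the 32 samples, grouped as EC, ET, IC, IT, KC, KT, TM and TP; filled points were well above background and open grey points were not. The chr12 region and the one holding 0610007N19Rik (chr15) sit higher in TM and TP, and those holding Trim30c (chr7) and Gm16340 (chr1) lower, with 1 chr12 probe and 1 chr15 probe at background in all samples.

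The largest rise was at chr12:50490638-50508093 on the forward strand. A_30_P01032159 was at 12.48, 12.90, 12.78 and 12.34 in TM and 12.30, 11.94, 12.51 and 12.32 in TP, and between 2.16 and 2.68 in the 24 liver samples, none of them above background. Tumor and liver samples did not overlap, and the difference was at least 81.1-fold in TM over KC (adjusted p = 5.59e-27, limma) and at least 59.6-fold in TP over KT (adjusted p = 1.65e-26). Its neighbour A_30_P01027901 was higher by 9.47 ± 0.38 (SE, n = 4 against 4) and 8.86 ± 0.38 on the log2 scale and was measured in 4 liver samples, whereas the third probe, A_30_P01023876, lay near the start of the region, 77 bases in against 17298 and 17396 for the other two, and was in no sample above background. The 3 probes of the reverse strand of chr18:70400082-70404236, over and beside Dynap (dynactin-associated protein), were the next largest rises, at least 41.5-fold to 63.3-fold.

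The largest falls were on chromosomes 5 and 7. A_30_P01029641 stood at 12.15, 12.23, 11.43 and 12.12 in KC and 11.94 to 12.02 in KT, against 2.35 to 2.72 in TM and 2.23 to 2.40 in TP, where no array was above background. It was lower by at least 41.9-fold in TM (adjusted p = 6.46e-17, limma) and at least 40.3-fold in TP, and it separated the liver cells as well, with 8.18 to 8.84 in EC and 9.45 to 10.92 in IC. A_30_P01030209, which shares most of its sequence, was lower by at least 35.8-fold and 33.8-fold, yet A_30_P01029297 at the far end of the same region rose by 2.25 and 1.91, so the region strand did not change as 1 unit. Slc4a1ap, 27667 bases away, differed by 0.13 and 0.25. The 3 probes of chr7:111530578-111539097 (reverse) lay 0 to 280 bases (between probe centres, as all distances here) from the probe of Trim30c, of the Trim30 family of RING-type ubiquitin ligases. A_30_P01024838 was at 13.12, 13.12, 11.50 and 12.55 in KC and 3.72, 4.85, 4.37 and 3.81 in TM, with 1 TM array above background (log2 difference -8.38 ± 0.42), and was lower in TP than in KT by at least 103-fold. A_30_P01027922 was lower by at least 91.0-fold and 83.3-fold, and A_30_P01033671 by at least 87.3-fold in TP. The Trim30c probe was lower by at least 103-fold and 108-fold. It lay 0 bases from A_30_P01027922 on the same strand, so these are close to 1 measurement.

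Other regions differed by less but on every array. A_30_P01024163 at chr1:175705225-175717250 (reverse) was at 17.61, 17.78, 15.94 and 17.55 in KC and 13.22, 14.84, 14.76 and 13.78 in TM, all above background, 8.39-fold lower (-3.07 ± 0.34, adjusted p = 1.68e-08, limma) and 11.5-fold lower in TP than in KT (-3.53 ± 0.34). All 5 probes of that strand fell, by 3.07 to 3.47 and 3.53 to 4.69, as did Gm16340 inside it (-3.65 and -4.65) and Ifi204, a member of the interferon-inducible p200 family, 29013 bases away (-3.27 and -3.57). A_30_P01031754 at chr19:5801802-5802597 (reverse), 6417 bases from the probe of Malat1, the abundant nuclear noncoding RNA, was 4.48-fold and 4.74-fold lower in tumor cells, with 17.14 to 17.71 in KC and 14.61 to 16.25 in TM. All 3 probes of that strand fell in both comparisons, and the Malat1 probe on the same strand fell by 2.03 in TP. In TM the Malat1 probe differed by -0.89 (adjusted p = 0.197, limma). Whether these probes and the Malat1 probe read the same transcript was not tested. A_30_P01026458, the reverse member of the first pair printed above, rose by 1.00 ± 0.18 and 1.48 ± 0.18. The 3 remaining members chosen for their mean level, A_30_P01030669 on chr7 and the GC-rich A_30_P01031448 and A_30_P01023523 (83.3% and 88.3% G or C), gave 1 call, a rise of 0.93 for A_30_P01030669 in TM.

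Members and their nearest named gene differed between TM and KC in a related way when they were close and on the same strand. Over 3717 pairs with both probes measured on all 4 arrays of some group, the Pearson correlation of the TM minus KC differences was 0.397. Within 10 kb it was 0.664 (1594 pairs) and beyond 0.183 (2123 pairs), and among the close pairs it was 0.761 on the same strand (1049) and 0.419 on opposite strands (545). TP minus KT gave 0.658 within 10 kb and 0.172 beyond, 0.764 and 0.404 by strand. Of 1353 pairs in which both were called in TM against KC, 1074 (79.4%) went the same way, and 1223 of 1592 (76.8%) in TP against KT. In comparisons of smaller differences the same-strand value within 10 kb was lower, 0.494 for ET minus EC and 0.536 for IC minus EC. All pairs share the samples and several members share 1 gene, so these are descriptions across probes. Close pairs on the same strand can also read the same bases or the same transcript. Among members with exactly the sequence of another probe, 39 were paired with a probe of a named gene. No correlation is given here without such pairs.

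**Figure D4:**
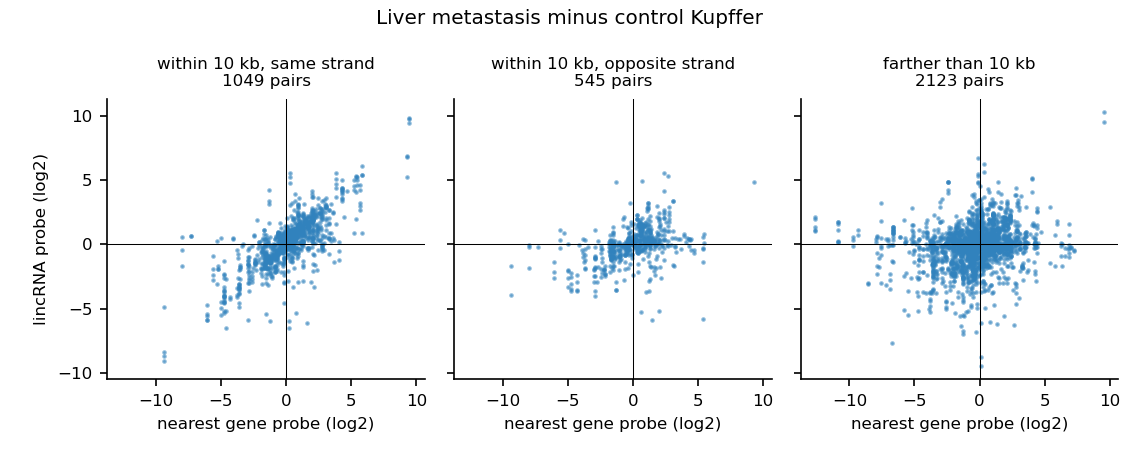
TM minus KC log2 difference of each member (vertical axis) against that of the probe of its nearest named gene (horizontal axis), for pairs within 10 kb on the same strand (1049 pairs), within 10 kb on opposite strands (545) and further apart (2123). The points lie along the diagonal in the first panel (r = 0.761), less so in the second (0.419) and spread widely in the last (0.183).

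Ito and endothelial cells were compared to find regions that separate these sinusoidal cell types, again within 1 dye and slide. In IC against EC 411 members were higher (4.17% of all probes) and 237 lower (5.72%), and in IT against ET 397 were higher (3.48%) and 245 lower (4.78%). As a share, 4.15% and 4.11% of members were called in either direction, against 9.89% and 8.26% of all probes. The calls shared by both comparisons were 187 higher and 90 lower, 1.198% and 0.577% of members against 2.02% and 2.71% of all probes. Without replicate 4 the counts were 463 higher (4.51% of all probes) and 229 lower (6.04%) in controls, and 216 higher (2.62%) and 249 lower (4.06%) in TME. On all 8 arrays 212 of the 411 and 119 of the 237 were measured. Most region calls rested on 1 probe, 332 of 427 region strands in IC against EC and 369 of 449 in IT against ET, with every probe the same way in 18 and 11. The hepatocyte marker list given above was higher in the Ito samples in both comparisons, and its part in the calls was not tested.

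The largest falls were regions measured in endothelial and not in Ito cells. A_30_P01023043 at chr15:32167516-32174417 (reverse) was at 5.63, 6.79, 6.69 and 5.26 in EC and 4.87, 6.31, 5.16 and 5.24 in ET, all above background, and at 3.67, 2.66, 2.88 and 2.26 in IC and 2.97, 4.95, 2.42 and 2.29 in IT, none above background. EC and IC did not overlap, and ET and IT did. It was lower in Ito by at least 1.83-fold in controls (adjusted p = 5.09e-05, limma) and at least 1.25-fold in TME (adjusted p = 0.00335), 4 of 5 probes of the strand fell in controls and 3 of 5 in TME, and the noncoding gene 0610007N19Rik, 57 bases away, differed by -2.90 and -2.18. This region was also higher in tumor cells, at 8.15 to 8.74 in TM, at least 4.58-fold over KC. At chr13:98038568-98068079 (reverse) A_30_P01029022 was lower by at least 1.58-fold and 1.42-fold and A_30_P01027366 by at least 1.46-fold and 1.19-fold, but of the 8 probes of that strand 3 rose in IC, A_30_P01020403 by 0.85, A_30_P01022423 by 0.79 and A_30_P01032860 by 0.35. Without replicate 4 all 3 were lower in both comparisons, A_30_P01023043 by -3.30 and -2.001 (adjusted p = 0.000667 and 0.0322, limma), A_30_P01029022 by -2.80 and -2.13 and A_30_P01027366 by -2.86 and -2.49.

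The largest rises in Ito cells were of another kind, single probes with a GA repeat. A_30_P01028216 was at 6.23, 7.81, 9.90 and 6.48 in IC and 6.84, 4.97, 11.35 and 5.85 in IT, above background on 4 and 3 arrays, and at 3.42 to 3.68 in EC and 2.48 to 3.84 in ET, never above background. The differences were at least 3.27-fold (adjusted p = 0.00546, limma) and at least 3.47-fold (adjusted p = 0.00465). A_30_P01030381 was at 6.35, 8.42, 10.52 and 7.24 in IC against 3.14 to 4.71 in EC (18.8-fold, 4.23 ± 0.90) and rose by 3.46 in IT over ET. A_30_P01025695 was at 5.12, 7.07, 8.84 and 6.14 in IC against 2.34 to 4.16 in EC (3.61 ± 0.90) and at least 2.85-fold higher in IT. In each of the 3 members Ito array 3 was the highest sample of both groups, and Ito and endothelial samples did not overlap. Within their region strands 1 of 3, 1 of 1 and 1 of 5 probes rose, but only 1 and 2 probes of the strands with several were measured on all 4 arrays of a group. Without replicate 4 all 3 rose in controls, by 4.42, 4.80 and 4.15 (adjusted p = 0.0181, 0.0114 and 0.0262, limma), and in TME by 4.60 for A_30_P01028216 and 4.02 for A_30_P01025695 (adjusted p = 0.0206 and 0.0438), while A_30_P01030381 gave 3.71 (adjusted p = 0.0661). The TME call of A_30_P01030381 was also lost without replicate 1 (3.66) or 3 (2.11), that of A_30_P01028216 without replicate 1 (4.20), and the control call of A_30_P01025695 without replicate 2 (3.36).

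All 3 of these probes, and A_30_P01028540 described below, hold the run GAGAGAGA. It was noticed after the values were seen, and it stands in 47 members (0.301%) and 123 other probes (0.307%), its reverse complement TCTCTCTC in 51 members (0.327%) and 82 other probes (0.205%). Members with GAGAGAGA were higher in IC than in EC in 11 of 47 cases (23.4%), against 2.57% of members without it, and in IT than in ET in 8 of 47 (17.0%) against 2.5%. The other probes behaved alike, with 28 of 123 (22.8%) against 4.71% and 19 of 123 (15.4%) against 3.81%, while members with TCTCTCTC were higher in 1 of 51 in each comparison. The 3 Ito members in which the run was noticed are counted in both the 11 and the 8. Of the 123 other probes with the run 6 and 4 were lower in Ito cells. None of the 47 members was lower, against 1.52% and 1.57% of members without it. Whether these spots read a transcript of their own region or any RNA holding the repeat was not tested.

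In the comparison of TME with control cells few members were called, and those called were mostly single dim probes in the Cy5 group. In endothelial cells 71 members were higher (0.578% of all probes) and 9 lower (0.564%), in Ito cells 49 higher (0.269%) and 3 lower (0.0198%), and in Kupffer cells 71 higher (0.372%) and 18 lower (0.0647%). Of the higher members 59 of 71, 34 of 49 and 57 of 71 had no control array above background, and 10, 14 and 10 had no array above background in either group. All 4 TME arrays were above background for 24, 20 and 27 of them. In either direction 0.513, 0.333 and 0.57% of members were called in endothelial, Ito and Kupffer cells, against 1.14, 0.289 and 0.436% of all probes. Of the region strands with at least 3 probes and a call, 70 of 70, 46 of 47 and 71 of 73 rested on 1 probe. In all 3 cell types 22 members (0.141%) were higher in TME, and 11 of these (0.0705%) were among the members called higher in TP, while 0 were lower in all 3. Over all probes these shares were 0.124%, 0.0647% and 0, and without replicate 4 the member counts were 25, 13 and 1. The summed neutrophil list was 11.88 to 13.01 in ET against 9.81 to 10.27 in EC, 10.71 to 14.29 in IT against 10.35 to 13.87 in IC, and 11.71 to 13.54 in KT against 11.59 to 13.74 in KC. Of its 7 genes 0 were called in each comparison, with median differences of 2.82, 2.17 and 0.94, and its part in the members' calls was not tested. Of 8 hepatocyte markers 2 were lower in ET than in EC, and 0 were called in Ito or Kupffer cells. All of these TME and TP samples carried Cy5, and a dye effect cannot be told apart from the condition.

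A_30_P01023147 at chr13:54399275-54445825 (reverse) was called in all 4 comparisons. It was at 2.39, 3.89, 2.66 and 2.86 in EC and 6.18, 5.92, 6.04 and 6.50 in ET, at 1.90 to 2.96 in IC and 6.58 to 7.30 in IT, at 2.20 to 2.89 in KC and 6.61 to 6.89 in KT, and at 2.28 to 3.37 in TM and 6.94 to 8.72 in TP. Every Cy5 sample was above background and no Cy3 sample was, and it was the 1 member with that pattern, beside 3 other probes. The bounds were at least 1.80-fold, 2.25-fold, 2.05-fold and 2.79-fold (adjusted p = 8.22e-07, 1.26e-09, 3.72e-09 and 5.53e-11, limma) in the order endothelial, Ito, Kupffer and tumor. Without replicate 4 the log2 differences were 3.07, 4.59, 4.06 and 4.74 (adjusted p = 0.000219, 8.24e-07, 6.79e-06 and 3.08e-07). None of the other 6 probes of the strand was called in any of these 4 comparisons, but only 2 of the 7 were measured on all 4 arrays of a group. A_30_P01027592 at chr8:70719179-70719686 (forward) was measured in all 12 TME samples, in 2 of 4 TP samples and in no Cy3 sample, with bounds of at least 1.66-fold, 1.69-fold, 1.90-fold and 1.27-fold, and without replicate 4 it was higher by 3.21, 3.68, 3.92 and 3.15 (adjusted p under 0.05 in each).

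Other named members were called in some of these comparisons or in all. A_30_P01028717 at chr1:87343550-87362900 (reverse), 128820 bases from Sp110, was higher in ET (at least 1.28-fold, adjusted p = 0.00058, limma, 3 of 4 arrays above background), IT (at least 1.76-fold) and KT (at least 2.14-fold). In Kupffer cells it stood at 6.55, 7.09, 5.51 and 6.31 against 1.94 to 2.54 in controls, without overlap, yet in TP it was at 2.20, 3.39, 2.19 and 4.58 and never above background, at least 1.75-fold lower than in KT in the same dye. Without replicate 4 it was higher in IT by 3.53 and in KT by 4.32 (adjusted p = 1.37e-05 and 2.85e-06). A_30_P01030087 at chr7:144563845-144603732 (forward) was at 6.97, 7.41, 7.13 and 7.78 in TP and at 1.85 to 2.35 in TM (at least 2.30-fold, adjusted p = 1.15e-11) and in KT never above background, at least 2.32-fold lower than in TP. It was also higher in ET and IT, by at least 1.33-fold (3 of 4 arrays above background) and 1.24-fold (1 of 4), and without replicate 4 it was higher by 4.86 in TP and 1.62 in IT. A_30_P01018421 at chr9:95295459-95301266 (forward), 1676 bases from and opposite to Chst2, was called in all 4 comparisons, with TP at 6.14 to 7.41 and TM at 1.79 to 1.93 (at least 2.20-fold), so it was higher in the Cy5 group of each. Without replicate 4 it gave 2.02 in Ito (adjusted p = 0.0516, not called) and 2.28 in Kupffer cells (adjusted p = 0.0475). A_30_P01028540, the GAGAGAGA probe from chr2:32950586-32984936, stood at 6.46, 5.70, 6.02 and 5.98 in ET and 2.36 to 3.55 in EC (at least 1.76-fold, adjusted p = 0.000943), and was also at least 1.57-fold higher in IC than in EC, within Cy3.

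**Figure D5:**
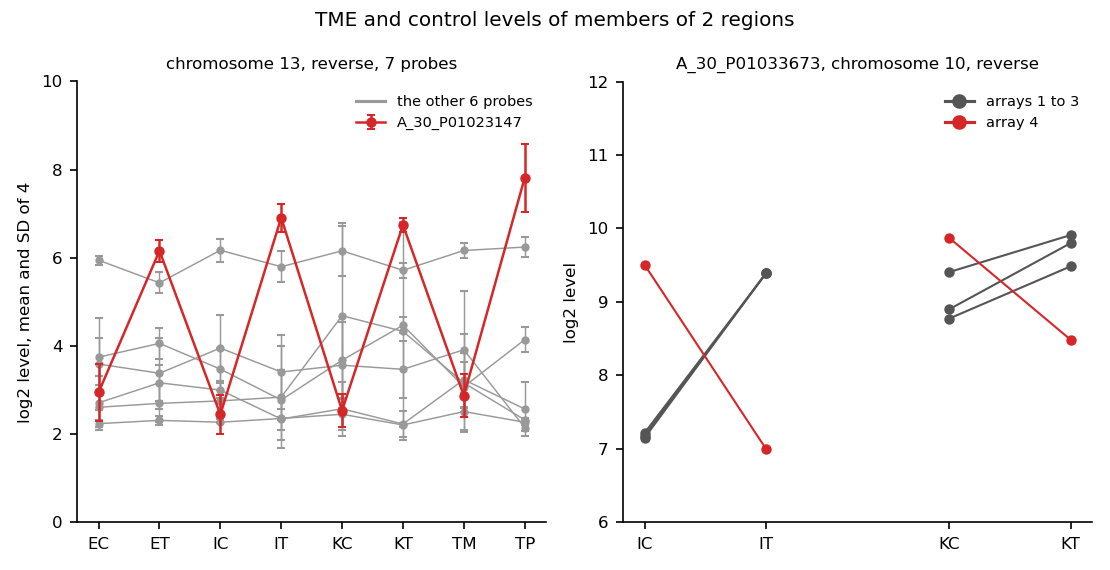
Left, log2 levels (mean ± SD of 4 samples) of the 7 probes of the reverse strand of the chr13 region in the 8 groups, with A_30_P01023147 in red and the other 6 in grey. Right, A_30_P01033673 in control and TME samples of Ito and Kupffer cells, joined by array, with array 4 in red: in Ito cells arrays 1 to 3 run from 7.15 to 7.22 up to 9.39 to 9.40 and array 4 from 9.51 down to 6.99.

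Falls in TME were few when all arrays were used. In endothelial cells A_30_P01025650 at chr13:98062189-98066613 (forward) was at 6.01, 4.53, 5.13 and 6.03 in EC and 3.82, 3.83, 4.07 and 3.39 in ET, without overlap (-1.65 ± 0.41, adjusted p = 0.0391, limma), above background on 4 and 1 arrays. A_30_P01020864 at chr10:97196521-97207471 (forward), measured in all 32 samples, went from 12.20, 11.73, 11.86 and 12.17 to 11.56, 10.67, 11.19 and 11.43, 1.71-fold lower (-0.78 ± 0.17, adjusted p = 0.0139), also without overlap. A_30_P01024501 on chromosome 18, 6730 bases from Spry4, an inhibitor of receptor tyrosine kinase signalling, fell by 1.18 in endothelial cells (adjusted p = 0.0268) and was at least 1.24-fold lower in KT than in KC (adjusted p = 0.00637). In Ito cells A_30_P01029059 was at 3.96 to 5.34 in IC and 2.29 to 3.40 in IT (at least 1.24-fold, adjusted p = 0.0415), and in Kupffer cells A_30_P01019680 was at 4.78 to 6.39 in KC and 3.41 to 4.20 in KT (at least 1.36-fold, adjusted p = 0.00892). The 2 last named were below background on every TME array, so their falls are from a dim signal to one not well above background. The endothelial falls were no longer called without replicate 4, at -1.32, -0.79 and -1.25 (adjusted p = 0.0524, 0.126 and 0.176), whereas A_30_P01024501 in Kupffer cells (-1.53, adjusted p = 0.0247), A_30_P01029059 (-2.22, adjusted p = 0.00457) and A_30_P01019680 (-1.65, adjusted p = 0.0266) still were.

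Leaving out array 4 changed the Ito and Kupffer results, an alternative whose members were picked after the data had been seen. With arrays 1 to 3 alone 299 members were higher and 497 lower in IT than in IC (3.94% and 3.89% of all probes), and 137 higher and 313 lower in KT than in KC (1.6% and 1.85%). Of the members called with all arrays, 50 of 52 and 80 of 89 were among them. Members measured on all 3 arrays of the higher group made up 132 and 404 of the Ito calls. In Kupffer cells they made up 80 and 208. No array of the lower group was above background for 173 and 219 of the Ito and 81 and 150 of the Kupffer calls. Region strands with 2 or more probes lower numbered 100 in Ito and 62 in Kupffer cells. In endothelial cells the same step left 52 higher (0.422%) and 6 lower (0.343%), and in TP against TM 217 higher (1.7%) and 203 lower (1.08%), with 49 and 238 of the members called on all arrays among them. The calls in Ito and Kupffer cells therefore turned on 1 array in each, whose place in its group cannot be settled from the labels.

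Some of these members moved with every probe of their region strand and others alone. A_30_P01033673 at chr10:39666719-39679959 (reverse), 67 bases from G630090E17Rik, was at 7.22, 7.15 and 7.18 in IC and 9.39, 9.40 and 9.40 in IT, but at 9.51 (IC) and 6.99 (IT) on array 4. Without array 4 it was higher by 2.21 ± 0.40 (adjusted p = 0.00229, limma) with all 3 probes of its strand, and with all arrays the difference was 1.03 (adjusted p = 0.563). A_30_P01032841 at chr13:65360846-65362134 (forward) was at 8.58, 9.06 and 8.98 in IC and 6.27, 5.87 and 6.27 in IT (-2.74 ± 0.28, adjusted p = 1.17e-05), with 6.60 (IC) and 8.78 (IT) on array 4. In Kupffer cells A_30_P01024852 at chr10:94870971-94871658 (reverse), 4079 bases from Socs2, a suppressor of cytokine signalling, was at 7.38, 7.91 and 8.23 in KC and 5.15, 4.77 and 4.72 in KT (-2.95 ± 0.45, adjusted p = 0.00132), with 5.49 (KC) and 7.21 (KT) on array 4 and -1.79 (adjusted p = 0.392) over all arrays. A_30_P01024579 at chr9:65368908-65377592 (reverse) was at 6.99, 7.04 and 7.06 in KC and 8.71, 9.01 and 8.65 in KT (1.76, adjusted p = 0.0263, limma) with all 3 probes of its strand. Without array 4 it was also higher in endothelial cells (1.91, adjusted p = 0.0373, limma). With all arrays it was not called there (1.95, adjusted p = 0.194), although endothelial array 4 rose as well, from 4.80 in EC to 6.85 in ET. Its highest ET sample was replicate 2, at 8.73. In each of these members array 4 of the Ito or Kupffer set lay on the opposite side, with the TME sample at the control level and the control sample at the TME level.

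CRC primary and liver metastasis cells differed in more members than any TME and control pair in the fit of all 8 groups and 32 samples. This order turned with other processing: the methods' t-test gave 58 members against 245 in endothelial and 417 in Ito cells, fits on only the groups compared 90 against 369 in endothelial cells, and normexp, loess and Aquantile 121 against 181 in endothelial cells. Without replicate 4 the 420 here stood against 796 in Ito and 450 in Kupffer cells. Over all probes the shares called without replicate 4 were 2.77% here, 7.83% in Ito and 3.45% in Kupffer cells. The other settings are given as counts of members alone, so they do not show whether the order over all probes turned. In TP against TM 365 members were higher (2.05% of all probes) and 176 lower (0.961%), 3.47% of members against 3.01% of all probes. Of the 365, 245 had no array above background in either group and 314 none in TM, and 78 were measured on all 4 TP arrays. On all 8 arrays 25 of the higher and 5 of the lower members were measured. Region strands with at least 3 probes had a call in 444 cases, of which 400 rested on 1 probe. Beside the members named above, A_30_P01017775 at chr5:33174092-33200792 (reverse) was at 5.38, 6.23, 6.68 and 4.61 in TM and 2.33 to 4.1 in TP (at least 1.28-fold lower, adjusted p = 0.00383, limma), and A_30_P01028872 at chr16:43635730-43639104 (forward) at 5.61 to 6.98 and 3.42 to 5.24 (at least 1.33-fold, adjusted p = 0.0107), neither with overlap. A_30_P01018991 differed by -2.34 (adjusted p = 0.0463), but its groups overlapped, at 5.54 to 8.38 in TM and 2.36 to 5.80 in TP. TP and TM differed in dye as well, and no array carried them the other way.

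At the study's own thresholds (adjusted p under 0.001 and at least 4-fold) 18, 14 and 18 members were called in TME against control (0.165, 0.0916 and 0.111% of all probes, endothelial, Ito and Kupffer in turn) and 70 in TP against TM (0.408%). The Ito and endothelial comparisons kept 78 and 25 members (1.24 and 0.871%), and the tumor and Kupffer comparisons 1003 and 1229 (14.3 and 15.9%). Tumor against Kupffer cells thus remained the comparison with by far the most called members.

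The change from control to TME was then compared between cell types. It differed, with all arrays, in 2 members between Ito and endothelial cells (0.111% of all probes), in 4 between Kupffer and endothelial cells (0.0808%) and in 1 between Kupffer and Ito cells (0.00359%). They are named although the rule for named members did not pick them: A_30_P01020494 changed by 1.03, 2.67 and 3.40 in endothelial, Ito and Kupffer cells, A_30_P01031811 by 0.73, -0.02 and 0.10, A_30_P01018879 by -0.01, -0.16 and 2.25, and A_30_P01032677 by -0.71, 0.29 and 1.503. The first 2 made up the Ito against endothelial calls, all 4 the Kupffer against endothelial calls, and A_30_P01018879 the Kupffer against Ito call. Without replicate 4 the counts were 75 (1.05% of all probes), 18 (0.187%) and 10 (0.106%), and of these calls only that of A_30_P01032677 was lost (2.54, adjusted p = 0.0623). Set against the TP minus TM difference, which carries the same dye contrast, the TME change of endothelial cells differed in 79 members (0.686%), that of Ito cells in 63 (0.35%) and that of Kupffer cells in 85 (0.456%), which became 74 (0.559%), 203 (2.53%) and 151 (1.21%) without replicate 4. This held among the named members for A_30_P01028717, whose change was higher by 2.58 (Ito, adjusted p = 0.0181, limma) and 3.18 (Kupffer, adjusted p = 0.0013), and for A_30_P01030087, whose change was lower in all 3, at -2.80, -3.33 and -4.08. Both members kept these calls without replicate 4, at 3.06 and 3.85 for the former and -2.48, -3.24 and -4.13 for the latter. For A_30_P01023147 the TME change less the TP minus TM difference was -1.73, -0.48 and -0.73 in endothelial, Ito and Kupffer cells, and none of these passed the test (adjusted p = 0.0867, 0.763 and 0.719).

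Long noncoding RNAs with their own gene symbol served as a reference list of the same kind of transcript. Of 44 listed genes 27 had probes on the array and 15 were measured in all 32 samples. None was called in TME against control, in TP against TM or in IC against EC, and 1 was higher and 1 lower in IT against ET. In TM against KC 9 were higher and 5 lower (median difference 0.51), and in TP against KT 11 and 6 (0.69). Like the intergenic members, they were thus called more often in tumor against Kupffer than in TME against control cells. The same held for the array as a whole. Over all probes 39.4% and 43.6% were called in the tumor comparisons, and 1.14, 0.289 and 0.436% in endothelial, Ito and Kupffer TME against control.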

How the data were processed

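RNA was measured on 2-colour Agilent 60-base oligonucleotide arrays, 16 arrays for 32 samples, each sample 1 channel. Per the file headers, the authors' scans were read with Feature Extraction 10.7.3.1 on mm9 annotation, which gave background-subtracted intensity and flags for spots well above background. The deposited value table holds 1 normalised linear intensity per probe and sample; it correlated at 0.99986 to 0.99999 with the quantile-normalised processed signals (median absolute log2 difference 0.0365), and its own normalisation is not otherwise stated.

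Log2 of that table was fitted with limma 3.58.1 in R 4.3.3 with the 8 groups and 32 samples in 1 model, and p-values were adjusted over 55681 probes (Benjamini-Hochberg). A call was adjusted p under 0.05, and the study's thresholds (adjusted p under 0.001 and at least 4-fold) were an alternative. Arrays give no counts, so the number of samples, 4 per group, limits the precision. Flags came from each sample's own channel. Levels below background were given as bounds from normexp (offset 50), loess and Aquantile values. Region strands, positions and sequences were those of the scanner files, and gene symbols were matched to RefSeq (GRCm38.p6).

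Named members were chosen by rule. For TME against control and TP against TM these were the 3 largest rises and falls among calls whose higher group was above background on its 4 arrays, with the same sign on each array. For Ito against endothelial cells they were the 3 largest each way called in both comparisons, for tumor against Kupffer cells the 4 largest each way above background in both higher groups, and beside these the 6 of highest mean level and 4 regions with the largest strand difference, levels that served only to choose members since different probes are not comparable. Members and lists were chosen with earlier results of these data known. Alternatives were other background corrections, normalisations, filters, call rules, tests, a replicate block and leaving out each replicate. The fitting steps were tested on simulated data. Python 3.11.15 with pandas 2.3.3, numpy 2.4.6 and matplotlib 3.10.9 made the summaries and figures. Probes on chromosome X and control spots were left out. The nearest gene of 1 region is not reported here.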

Additional observations from a re-analysis of the deposited data

Results flagged for a closer look

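Of 246 sets of 4 values tested, levels of named members or counts of measured members in a group, 30 had 1 sample farther from the other 3 than Dixon's 95% criterion allows, where chance alone gives about 1 in 20. Control Ito replicate 4 was apart in 10 members, and was the highest of its group in each. The values were 10.92 for A_30_P01029641, 11.69 for A_30_P01024838, 11.73 for A_30_P01033671, 16.38 for A_30_P01030669, 13.97 for A_30_P01021851, 13.84 for A_30_P01024041, 13.81 for A_30_P01025114, 15.46 for A_30_P01029358, 14.23 for A_30_P01032364 and 13.41 for A_30_P01029799. From A_30_P01021851 to A_30_P01032364 in this order, 5 members lie on the reverse strand of the chr4 region over Cdc42 and are not independent.

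TME Kupffer replicate 4 was apart at 13.27 for A_30_P01024838, 13.09 for A_30_P01033671, 17.31 for A_30_P01031754, 6.25 for A_30_P01023127 and 14.15 for A_30_P01032364. Control Kupffer replicate 3 was lower than its group at 11.43 for A_30_P01029641, 15.94 for A_30_P01024163, 12.08 for A_30_P01029799 and 10.91 for A_30_P01030725. TME Ito replicate 2 stood at 16.20 for A_30_P01031754, 17.87 for A_30_P01031448 and 17.68 for A_30_P01023523, and its epithelial marker list was 17.23 against 12.19 to 12.35 in the other TME Ito samples. TME Ito replicate 3 stood at 8.95 for A_30_P01028540.

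TME endothelial replicate 2 was at 3.86 for A_30_P01027366 and 13.31 for A_30_P01021851, and TME endothelial replicate 4 at 6.18 for A_30_P01023127. Liver metastasis replicate 1 was at 9.73 for A_30_P01020864 and replicate 4 at 6.43 for A_30_P01021338. CRC primary replicate 4 was at 9.13 for A_30_P01025488, against 5.89 to 6.21 in the other 3, and had 2894 measured members against 3542 to 3664.

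In 6 cases the change from control to TME differed from the TP minus TM difference by limma's test of that difference. For A_30_P01020864 the endothelial change was lower by -1.11 (adjusted p = 0.0196), and without replicate 4 the value was -1.19 (adjusted p = 0.0933). For A_30_P01028717 the change was higher by 2.58 in Ito (adjusted p = 0.0181) and 3.18 in Kupffer cells (adjusted p = 0.0013). For A_30_P01030087 the differences were -2.80 in endothelial (adjusted p = 0.00108), -3.33 in Ito (adjusted p = 8.5e-05) and -4.08 in Kupffer cells (adjusted p = 2.63e-06).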

How the results depend on the processing

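Counts of called members depended on the processing most where few were called. Unless given above, the share over all probes under each setting is not set beside them. Main counts were 80 (endothelial), 52 (Ito) and 89 (Kupffer) for TME against control, 541 for TP against TM, 648 and 642 for Ito against endothelial in control and TME, and 3752 and 4513 for TM against KC and TP against KT. With the study's thresholds they were 18, 14, 18, 70, 78, 25, 1003 and 1229 in that order. Fits on only the groups compared gave 369, 27, 39 and 90 for the first 4 and 244 for TME Ito against endothelial, and the methods' t-test gave 245, 417, 14, 58 and 400. Normexp with loess and Aquantile gave 181 (endothelial), 27 (Ito) and 121 (TP against TM), and normexp with quantile normalisation 28 (Ito) and 268 (TP against TM). Adding 50 before log2 gave 33 for Ito. Only probes measured on all 4 arrays of a group gave 47 (Kupffer), 149 (TP against TM) and 2883 (TP against KT). Scaling to the 75th percentile, which moved the median of all probes by 0.30, 0.30, 0.50 and 0.61 in the Ito and tumor comparisons, gave 145 (TP against TM), 1009 (control Ito against endothelial, 847 higher and 162 lower) and 7344 (TP against KT, 5683 and 1661). It also gave 612 higher and 163 lower in TME Ito against endothelial and 4120 and 1376 in TM against KC. The cause of these shifts was not tested.

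Differences of the TME change between cell types numbered 2, 4 and 1 (Ito less endothelial, Kupffer less endothelial, Kupffer less Ito). They numbered 4, 2 and 0 with normexp and quantile normalisation, 0, 1 and 0 with the study's thresholds, 14 for Kupffer less endothelial with 50 added, and 2 and 0 for the last 2 with only measured probes. Less the TP minus TM difference the counts 79, 63 and 85 became 47, 41 and 51, then 14, 20 and 28, then 35, 26 and 35 under normexp, the study's thresholds and measured probes. Members above background on all 4 arrays of a group rose from 4966 to 9110 with the positive-and-significant flag.

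Leaving out 1 replicate of every group in turn gave 33 to 62 (endothelial), 27 to 796 (Ito), 35 to 450 (Kupffer), 185 to 668 (TP against TM), 312 to 692 and 199 to 470 (Ito against endothelial), 2870 to 3562 (TM against KC) and 3737 to 4092 (TP against KT). The highest Ito and Kupffer values came without replicate 4 and the highest TP against TM value without replicate 1. Differences of change ranged over 0 to 75, 1 to 18 and 0 to 10, and less TP minus TM over 48 to 74, 39 to 203 and 55 to 151. Members above background ranged over 5155 to 5659.

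Same-numbered samples shared an array but did not deviate together in every pair (correlations -0.64 to 0.40). The lowest, -0.64 in Ito and -0.57 in Kupffer cells, were those of array 4, and endothelial pairs gave 0.05 to 0.40. The number was not taken as a pairing in the main fit, and fits with the array as a block were alternatives. With the array as a fixed replicate block the counts were 68, 90 and 86 for TME against control and 620 for TP against TM, and 0, 4 and 0 for the differences between cell types. As a random replicate block they were 648, 625, 3761 and 4518 for the other 4 comparisons. No named member reversed. A call was lost in 109 of the named results over all alternatives, mainly among falls in TME and TP and the 3 GA-repeat members of Ito cells.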
